A study of Mus musculus with 8 samples.

Results

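Cytosolic ribosomal proteins were taken as the protein-coding mouse genes whose symbol is Rpl or Rps followed by a number and at most a single a, l or x, together with Rplp0, Rplp1, Rplp2 and Rpsa. Of the 55416 gene identifiers in the count files of the 8 lungs, 81 met this rule, 32 for the small ribosomal subunit and 49 for the large subunit with its stalk. Female C57BL/6J mice (C57BL/6 in the labels) aged 6 to 8 weeks were given lipopolysaccharide (LPS) to produce endotoxic shock, and lung RNA was sequenced about 24 h later. Control mice (1, 2 and 4) received DMSO into the tail vein and saline into the peritoneum. LPS mice (1, 6 and 7) received 35 mg/kg LPS only. Dual-treated mice (2 and 5) received YW3-56, an inhibitor of protein arginine deiminases, at 10 mg/kg in DMSO shortly before the same dose of LPS. The paper names no DMSO for the LPS mice. As described, LPS against control and dual treatment against LPS therefore also differ in DMSO, and its part was not tested. Each library held between 19061949 and 20908608 counted fragments.

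A ribosome carries a single copy of nearly every ribosomal protein, while the stalk proteins Rplp1 and Rplp2 are present as a pair of dimers bound to Rplp0, where they recruit the GTPases that drive initiation and elongation. The mRNAs of ribosomal proteins begin with a run of pyrimidines, and their translation is controlled by mTORC1 through Larp1, so the amount of mRNA and the output of protein can move separately. Several members have a close paralog with restricted expression, such as Rpl3l in muscle and Rpl10l and Rpl39l in testis.

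Levels below are CPM (the count of a gene scaled to a common library total) after TMM scaling, which adjusts each library for its composition, unless another scale is named. Levels of different genes are compared per kilobase of the canonical transcript. The median member stood at 348 CPM per kb over the 8 mice. Of the 18560 genes that passed the expression filter, the 18488 with a transcript length had a median of 4.79. Canonical transcripts of members were short, with a median of 1103 bases against 2932.5, and their median GC content was 50.6% against 50.1%. The members lay on 19 chromosomes, 14 of them on chromosome 7. All but Rpl10l and Rpl39l passed the filter, which left 79 tested members, 32 small and 47 large. Rpl10l had 0 counts in every library, where 3 counts correspond to 0.143 to 0.157 CPM by library size. Rpl39l had 1, 2 and 1 counts in the control mice, 2, 3 and 8 in the LPS mice and 1 and 7 in the dual-treated mice.

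The most abundant members per kb were Rplp1 (1950 CPM per kb), Rpl41 (1710), Rps14 (1350), Rps12 (1200) and Rps15 (1110). The least abundant tested members were Rpl3l (1.57), Rpl24 (1.67), Rps10 (5.72) and Rpl13a (13). Rpl41, which encodes a very short peptide, stood at 851, 736 and 778 CPM in the control mice, 1320, 1280 and 875 in the LPS mice and 952 and 895 in the dual-treated mice. Its lowest LPS mouse lay below both dual-treated mice, and all 5 treated mice lay above all 3 controls. Rps14, whose loss is linked to a human anaemia with a chromosome deletion, stood at 748, 722 and 757 CPM (control), 1040, 964 and 769 (LPS) and 766 and 811 (dual). LPS mice 1 and 6 were the highest for Rps14, and mouse 7 lay above every control and inside the dual-treated range. Rps15 stood at 668, 537 and 604 CPM (control), 742, 678 and 492 (LPS) and 520 and 595 (dual), with all 3 groups overlapping. Between mice of a group, the median coefficient of variation over the 79 members was 8.24% among controls, 17.4% among LPS mice and 4.84% among dual-treated mice, and Rpl3l was the most variable member in each group.

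The summed level of the 81 members was highest in LPS mice 1 and 6. It stood at 31363, 27791 and 29193 CPM in the control mice, 44161, 44312 and 33152 in the LPS mice and 33550 and 32232 in the dual-treated mice. LPS mouse 7 lay inside the dual-treated range, and each treated mouse lay above each control. The mean ± SD was 29449 ± 1800, 40542 ± 6400 and 32891 ± 932 CPM, so that the LPS mean was 1.38 times the control mean and the dual-treated mean 0.811 times the LPS mean. These values depend on scaling, because the TMM factors were 1.07, 1.08 and 1.06 for the controls, 0.81, 0.894 and 0.93 for the LPS mice and 1.11 and 1.09 for the dual-treated mice. With library size alone the sums were 33656, 29942 and 30958 CPM (control), 35788, 39629 and 30834 (LPS) and 37231 and 35145 (dual), and the ratios of means became 1.12 for LPS to control and 1.02 for dual to LPS. On that scale LPS mouse 7 lay among the controls and both dual-treated mice lay above LPS mouse 7. The ratio of dual to control means was 1.12 with TMM and between 1.1 and 1.15 with the other scalings. In a tissue extract, a change in the number of cells rich in ribosomal protein mRNA and a change of that mRNA within each cell cannot be told apart.

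**Figure D1:**
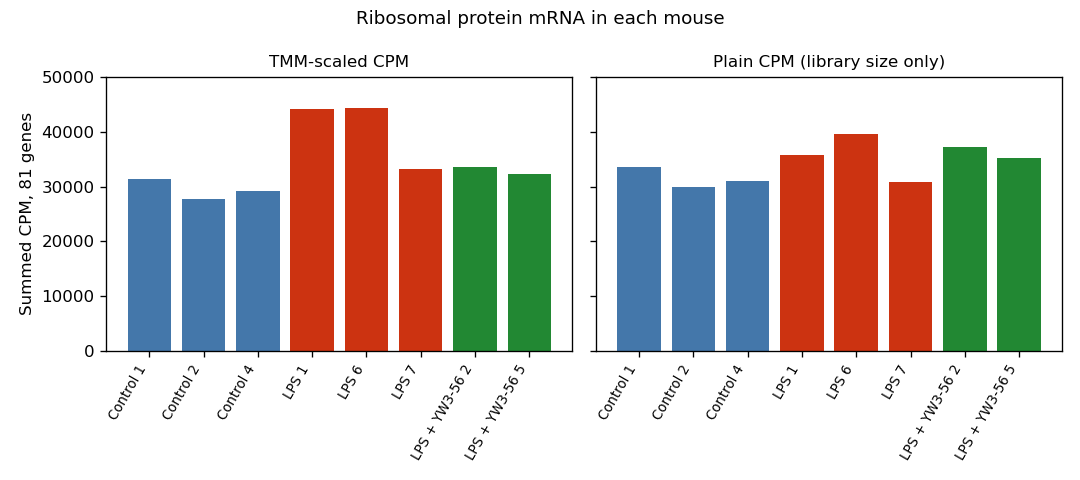
Summed level of the 81 cytosolic ribosomal protein genes in each mouse, scaled by TMM and by library size alone. Each bar is 1 mouse.

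The balance between the subunits was steadier than the sum. Summed small-subunit level divided by summed large-subunit level was 0.666 to 0.679 among controls, 0.67 to 0.701 among LPS mice and 0.662 to 0.676 among dual-treated mice, with overlapping ranges. The share of the 3 stalk genes in all member counts, which does not depend on library scaling, separated the groups. It was 6.95% (95% interval 6.89 to 7.02), 7.25% (7.18 to 7.31) and 7.3% (7.24 to 7.37) in the control mice. In the LPS mice it was 8.91% (8.84 to 8.97), 8.78% (8.72 to 8.85) and 9.17% (9.09 to 9.24), and in the dual-treated mice 8.29% (8.23 to 8.35) and 7.84% (7.78 to 7.9). Both dual-treated mice lay above every control and below every LPS mouse. The intervals cover counting error within a library and not the difference between mice.

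In LPS against control, 50 of the 79 tested members were higher at an adjusted p under 0.05, 21 small and 29 large, and 2 were lower, where 32.6% of all tested genes were higher and 33.9% lower. The estimate was above 0 for 74 members and for 49.7% of all tested genes. The median log2 fold change (log2FC) was 0.43 for members and −0.01 for all tested genes, a difference of 0.44. The middle range was narrow, with quartiles of 0.30 and 0.60, while single members reached from −0.62 to 3.48. With library size alone the median of all tested genes moved to −0.29 and that of the members to 0.13. Scaling factors shift the log2FC of all genes by nearly the same amount, so the difference, 0.43, could hardly change. On that scale 15 members were higher and 6 lower, against 23.4% and 42.2% of all tested genes. Leaving out control mouse 2 gave 32 higher members, against 29.4% of all tested genes, and leaving out LPS mouse 7 gave 67, against 31.5%. The study's cut-off was p under 0.05 with more than a 2-fold difference. The paper does not say whether that p was adjusted, and it was taken here as unadjusted. Applied to the edgeR fit, the cut-off gave 2 higher members (Rpl3l and Rps2) and 0 lower, against 18.3% and 21.8% of all tested genes. Applied to DESeq2, the test for which that cut-off was used, it gave 4 higher (Rpl3l, Rps2, Rpl24 and Rpl12) and 0 lower, against 18.8% and 20.8%. At unadjusted p under 0.05 without that fold limit edgeR counted 54 higher and 2 lower members (34.2% and 35.4% of all tested genes), and DESeq2 with adjusted p counted 60 higher and 1 lower (33.7% and 32.7%).

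Apart from the muscle paralog Rpl3l, the largest rise belonged to Rps2, a small-subunit protein methylated by Prmt3. Its level was 500, 451 and 468 CPM in the control mice, 1070, 1150 and 815 in the LPS mice and 675 and 571 in the dual-treated mice. Every LPS mouse lay above every dual-treated mouse, and every dual-treated mouse above every control. Against control it rose 2.14-fold with LPS (SE of log2FC 0.15, adjusted p 0.000128), and the call held whichever library was left out. Rpl12, at the base of the stalk, read 286, 267 and 271 CPM (control), 555, 612 and 454 (LPS) and 404 and 365 (dual), in the same order of groups without overlap. It rose 1.97-fold with LPS (log2FC 0.98 ± 0.13 SE, adjusted p 0.000104). Rpsa, a small-subunit protein also known as the laminin receptor, read 677, 662 and 730 CPM (control), 1190, 1280 and 988 (LPS) and 990 and 925 (dual). LPS mouse 7 was level with dual-treated mouse 2, and all treated mice lay above all controls. The LPS difference was 1.67-fold (log2FC 0.74 ± 0.13, adjusted p 0.000597).

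All 3 stalk genes were higher in LPS than in control. Rplp0, the stalk anchor, stood at 946, 908 and 952 CPM in the control mice, 1770, 1800 and 1520 in the LPS mice and 1360 and 1180 in the dual-treated mice. The dual-treated mice lay between the other groups without overlap. Rplp0 rose 1.81-fold (log2FC 0.86 ± 0.12, adjusted p 0.000182). Rplp1 stood at 862, 809 and 855 CPM (control), 1470, 1480 and 1070 (LPS) and 1020 and 974 (dual), and Rplp2 at 373, 297 and 325, then 696, 608 and 451, then 410 and 378. For both dimer proteins LPS mouse 7 was the lowest LPS mouse and still above the dual-treated mice. Their folds were 1.59 (log2FC 0.67 ± 0.14, adjusted p 0.0022) and 1.76 (0.82 ± 0.16, adjusted p 0.00161).

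Rpl13a and Rps10 were the members called lower with LPS. Rpl13a, part of a complex that represses translation in interferon-treated myeloid cells, was at 16.7, 14.9 and 17.5 CPM in the control mice, 9.9, 12.8 and 9.2 in the LPS mice and 13.7 and 14.3 in the dual-treated mice. Every LPS mouse lay below every dual-treated mouse, and every dual-treated mouse below every control. The level in LPS was 0.648 times that in control (log2FC −0.62 ± 0.16, adjusted p 0.00553), and no library left out removed the call. Rps10, which is ubiquitinated on stalled ribosomes, was at 5.52, 6.56 and 6.16 CPM (control), 3.62, 3.98 and 4.96 (LPS) and 5.03 and 4.74 (dual), and LPS mouse 7 overlapped the dual-treated mice. Its level in LPS was 0.689 times control (log2FC −0.54 ± 0.20, adjusted p 0.0341), and the adjusted p rose above 0.05 without control mouse 2 (0.109), control mouse 4 (0.0908), LPS mouse 1 (0.102) or LPS mouse 6 (0.0866), with DESeq2 (0.0505), with no filter (0.0719) and with the correction for length and GC content (0.132). In these files both genes were low for ribosomal proteins, and their annotation overlaps other genes. Rpl13a shares 33% of its exonic bases on the same strand with Gm45713 and Rps10 14.9% with Gm49804. Rpl24, whose mutation gives the belly spot and tail mouse, shares 41.1% with Gm28037, and all 3 overlapping genes had 0 counts in every library. Rps12, among the most abundant members, shares 13.7% with Gm56964. Rpl24 was at 0.636, 0.891 and 0.919 CPM (control), 1.36, 2.02 and 1.51 (LPS) and 0.816 and 0.921 (dual), with every LPS mouse above every other mouse. It rose with LPS (log2FC 0.99 ± 0.34, adjusted p 0.0279), and the call was lost without control mouse 1 (0.0904), control mouse 2 (0.0584), control mouse 4 (0.0518) or LPS mouse 6 (0.0892), with library size alone (0.105), with no filter (0.0818) and with LPS mouse 1 as the only LPS mouse (0.243). How fragments in shared bases were counted was not stated, and their part in the low levels of these 3 members was not tested. Rps10 also has pseudogenes, which held a mean of 124 CPM by library size against 5.17 in the gene itself. The part of pseudogene reads in the Rps10 results was not tested.

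**Figure D2:**
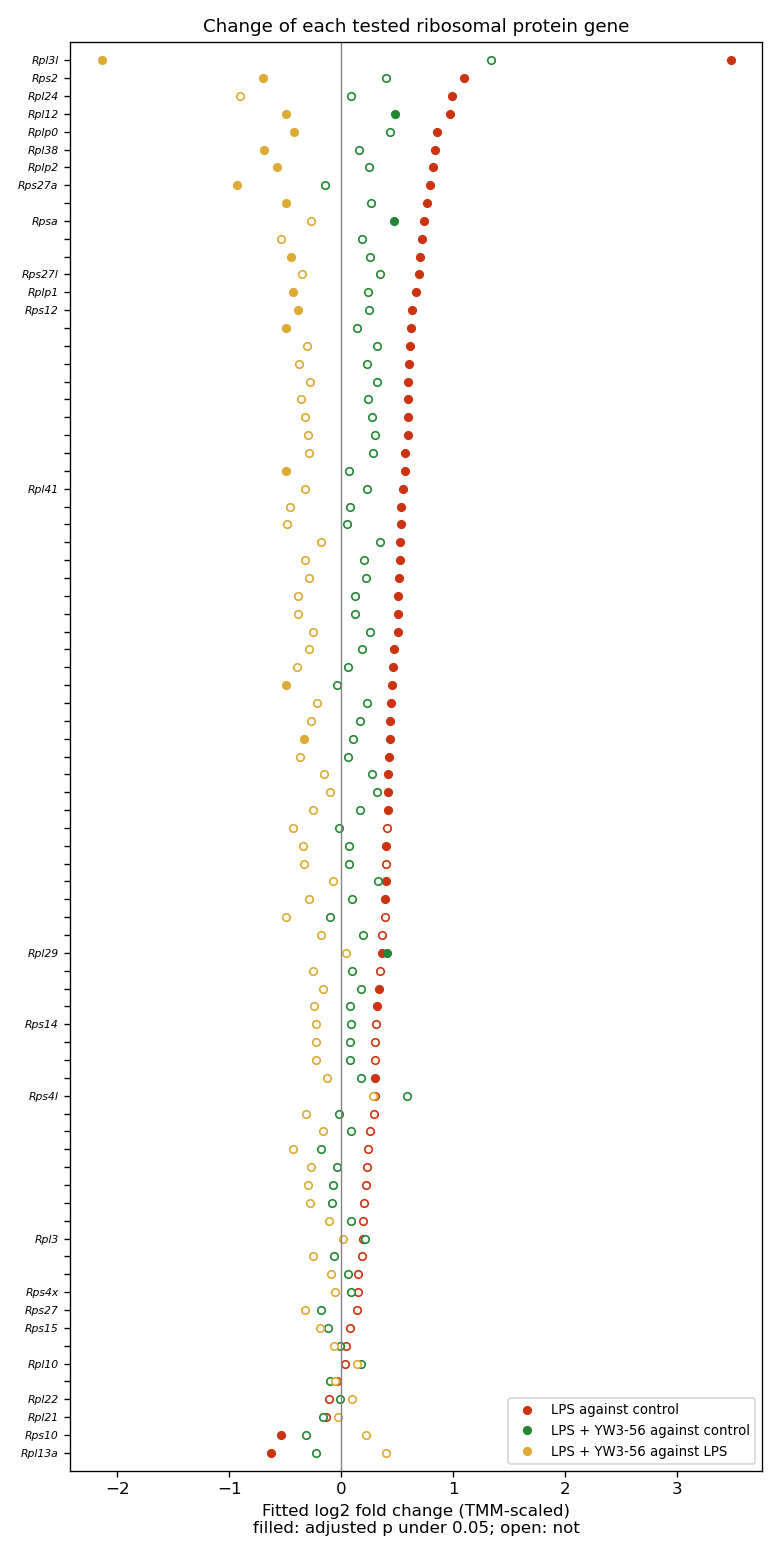
Log2 fold change of each of the 79 tested members in the 3 comparisons, which share samples. Only genes discussed in the text are labelled.

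To compare members with one another, each library was also scaled to the geometric mean of the 79 tested members. This centres the members on no change by construction, so shares of all tested genes on this scale are not a like background. On this relative scale 6 members were higher in LPS than in control (Rpl3l, Rps2, Rpl12, Rplp0, Rplp2 and Rpl32) and 9 lower (among them Rpl13a, Rps10, Rpl21, Rpl22 and Rpl10), against 17.6% and 43.7% of all tested genes. Rps2 rose by a relative log2FC of 0.64 ± 0.12 (adjusted p 0.000824) and Rpl12 by 0.52 ± 0.12 (adjusted p 0.00303). Rplp0 rose by 0.41 (adjusted p 0.0122, but 0.0536 without control mouse 1 and 0.0588 with LPS mouse 1 as the only LPS mouse) and Rplp2 by 0.36 (adjusted p 0.0301). The Rplp2 call was lost without control mouse 1 (0.0525), 2 (0.119) or 4 (0.0959) or LPS mouse 1 (0.143) and with no filter (0.0902), and the relative Rps10 call without control mouse 2 (0.0502). Rpl13a fell by a relative log2FC of −1.07 ± 0.18 (adjusted p 0.000359). Without control mouse 1 there were 3 higher members, against 14.7% of all tested genes. There were 5 lower members without control mouse 2 (38.1% of all tested genes lower) or control mouse 4 (38.7%).

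In CPM, Rpl21, Rpl22 and Rpl10 had log2FC of −0.13, −0.10 and 0.04 with LPS, none of them called, beside the member median of 0.43. Rpl21 stood at 164, 147 and 153 CPM in the control mice, 149, 144 and 130 in the LPS mice and 135 and 141 in the dual-treated mice. As a multiple of the geometric mean of members it was 0.583, 0.59 and 0.59 (control), 0.385, 0.36 and 0.441 (LPS) and 0.459 and 0.488 (dual). On the relative scale the groups did not overlap, and Rpl21 fell with LPS (relative log2FC −0.57 ± 0.13, adjusted p 0.00293). Rpl22, which has the paralog Rpl22l1, read 0.624, 0.6 and 0.606 (control), 0.401, 0.422 and 0.422 (LPS) and 0.514 and 0.58 (dual) times the geometric mean. The groups were again separate, with a relative log2FC of −0.56 ± 0.13 (adjusted p 0.00257), and neither gene lost its relative call with any library left out. Rpl10, which joins the large subunit late in its maturation, read 2.24, 2.59 and 2.56 (control), 1.71, 1.77 and 2.11 (LPS) and 2.51 and 2.5 (dual) times the geometric mean. Every LPS mouse lay below all other mice for Rpl10, and the relative log2FC was −0.41 ± 0.13 (adjusted p 0.0202). The Rpl10 call was lost without control mouse 2 (0.0838), control mouse 4 (0.0802) or LPS mouse 1 (0.0829).

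Dual treatment against control gave few differences among members. 3 of 79 were higher (Rpl12, Rpsa and Rpl29) and 0 lower, where 9.13% and 7.02% of all tested genes were higher and lower. The median log2FC was 0.14 for members and 0.00 for all tested genes. Estimates were above 0 for 61 members and for 50.4% of all tested genes. A correction for transcript length and GC content lowered the member median to 0.04. It left 45 members above 0 and 0 called higher, against 49.3% and 8.89% of all genes in that fit. At unadjusted p under 0.05 edgeR gave 8 higher and 0 lower, against 15.7% and 14.7%, and DESeq2 with adjusted p gave 5 higher and 0 lower, against 10.2% and 10.3%. The 2-fold cut-off gave 0 higher and 0 lower members with edgeR, against 7.04% and 3.43% of all tested genes, and 1 higher (Rpl3l) and 0 lower with DESeq2, against 6.62% and 3.45%. On the relative scale edgeR also gave 0 higher and 0 lower, against 5.02% and 5.4%, with 3 higher and 0 lower at unadjusted p under 0.05, against 9.33% and 16.2%, and no DESeq2 fit on that scale.

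Dual treatment raised Rpl12 1.4-fold and Rpsa 1.39-fold over control (log2FC 0.49 ± 0.14, adjusted p 0.0421, and 0.47 ± 0.14, adjusted p 0.0466). Rpl29 stood at 151, 138 and 156 CPM (control), 189, 214 and 171 (LPS) and 207 and 187 (dual), where all treated mice lay above all controls and the treated groups overlapped. Its difference was 1.33-fold (log2FC 0.41 ± 0.12, adjusted p 0.0496). All 3 calls were lost when any control mouse or either dual-treated mouse was left out, and all 3 remained without LPS mouse 6 or 7. Without LPS mouse 1 the adjusted p of Rpl29 was 0.0513 and the other 2 calls remained. DESeq2 size factors put Rpsa at 0.0522 and Rpl29 at 0.0586, and upper-quartile scaling put Rpl29 at 0.0558. Without control mouse 1 the adjusted p was 0.0953 for Rpl12, 0.134 for Rpsa and 0.119 for Rpl29, and without dual-treated mouse 2 it was 0.255, 0.245 and 0.319. Without LPS mouse 7 the number of higher members was 7, against 10.7% of all tested genes. Rplp0 had a log2FC of 0.44 ± 0.13 in this comparison (adjusted p 0.0536), which passed the threshold without LPS mouse 1 (0.0453) or LPS mouse 7 (0.0274), with DESeq2 (0.0049), library size alone (0.0219), upper-quartile scaling (0.0496), at least 10 counts in every library (0.0474) and only the 2 groups compared (0.0229).

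In dual treatment against LPS, 0 of 79 members were higher and 15 lower, 5 small and 10 large, where 31.7% of all tested genes were higher and 27.4% lower. The lower members included Rpl3l, Rps27a, Rps2, Rpl38, Rpl12, Rps12 and the 3 stalk genes. With edgeR and unadjusted p under 0.05 there was 1 higher member and 25 lower, against 34% and 29.5% of all tested genes, and with DESeq2 and adjusted p there were 0 higher and 34 lower, against 29.6% and 29.3%. The median log2FC was −0.29 for members and 0.06 for all tested genes. Estimates were above 0 for 7 members and below 0 for 72, where 52.1% of all tested genes were above 0. Library size alone moved the median of all tested genes to 0.38 and that of members to 0.04. The difference, −0.34, could again hardly change with the scaling factors. On that scale 8 members were higher and 1 lower, against 42.5% and 17.4% of all tested genes. On the same scale 49 of the 79 estimates were above 0, where 64.2% of all tested genes were. Upper-quartile scaling gave 1 higher and 9 lower, against 34.4% and 24.8%. The count also turned on single mice, with 57 lower members without LPS mouse 7 (27% of all tested genes lower), 7 without LPS mouse 1 (25.8%), 5 without LPS mouse 6 (25.7%), 7 without dual-treated mouse 2 (23%) and 3 without dual-treated mouse 5 (20.7%). The 2-fold cut-off gave 0 higher members and 1 lower (Rpl3l) with edgeR, against 20.6% and 14.7% of all tested genes, and the same counts with DESeq2, against 19% and 15.2%. This comparison and that of LPS with control use the same 3 LPS mice.

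Rps2 fell in dual treatment to 0.617 times its LPS level (log2FC −0.70 ± 0.17, adjusted p 0.00526). No library left out removed this call, and with library size alone the log2FC was −0.36 (adjusted p 0.0542). Rpl12 fell by a log2FC of −0.49 ± 0.14 (adjusted p 0.0143, and 0.0742 without dual-treated mouse 5). For the stalk, Rplp0 fell by −0.42 ± 0.14 (adjusted p 0.0231), Rplp1 by −0.43 ± 0.16 (adjusted p 0.0408) and Rplp2 by −0.57 ± 0.18 (adjusted p 0.0236). Each of the 3 stalk calls was lost without LPS mouse 6 (0.0586, 0.105 and 0.0517) or dual-treated mouse 5 (0.112, 0.12 and 0.0907). With library size alone these 4 falls were smaller and not called, at −0.16 for Rpl12 (adjusted p 0.313), −0.09 for Rplp0 (0.516), −0.10 for Rplp1 (0.548) and −0.23 for Rplp2 (0.215). The Rplp2 call was also lost without LPS mouse 1 (0.0552). The Rplp1 call was lost as well without control mouse 1 (0.0647), 2 (0.0689) or 4 (0.0517), LPS mouse 1 (0.0831) or dual-treated mouse 2 (0.0747) and with upper-quartile scaling (0.0759). With only the 2 groups compared, the adjusted p was 0.0796 for Rplp0 and 0.0994 for Rplp1.

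Rps27a, which is made as a fusion with ubiquitin, had dual-treated mice far apart. It stood at 276, 195 and 267 CPM in the control mice, 517, 432 and 329 in the LPS mice and 156 and 290 in the dual-treated mice. Dual-treated mouse 2 was the lowest of all 8, and mouse 5 lay just above the controls. The LPS rise was a log2FC of 0.79 ± 0.25 (adjusted p 0.0173), lost without control mouse 2 (0.0686) or LPS mouse 1 (0.0542) and with library size alone (log2FC 0.49, adjusted p 0.0744). The level in dual treatment was 0.523 times that in LPS (log2FC −0.94 ± 0.28, adjusted p 0.0175), lost without dual-treated mouse 2 (0.0962). Rpl38, linked to translation of Hox mRNAs, read 186, 133 and 158 CPM (control), 356, 317 and 183 (LPS) and 186 and 169 (dual). LPS mouse 7 lay among the control and dual-treated mice for Rpl38. The gene rose with LPS (log2FC 0.84 ± 0.23, adjusted p 0.00816) and fell in dual treatment against LPS (−0.69 ± 0.26, adjusted p 0.0412), and the fall was lost without control mouse 4 (0.0517), LPS mouse 1 (0.108) or 6 (0.0966), or dual-treated mouse 2 (0.0789) or 5 (0.143). Rps12 read 441, 423 and 455 CPM (control), 768, 714 and 567 (LPS) and 524 and 524 (dual), without overlap of groups. Its rise with LPS had a log2FC of 0.64 ± 0.13 (adjusted p 0.0016), and its fall of −0.38 ± 0.14 against LPS (adjusted p 0.042) was lost without control mouse 1 (0.0665) or 2 (0.0702), LPS mouse 1 (0.0937) or 6 (0.0892), or either dual-treated mouse (0.0872 and 0.0955). With library size alone the log2FC against LPS was −0.60 for Rps27a (adjusted p 0.0629), −0.34 for Rpl38 (0.208) and −0.05 for Rps12 (0.732). The falls of Rpl38 and Rps12 were also not called with upper-quartile scaling (0.0611 and 0.082) or with only the 2 groups compared (0.06 and 0.0941), nor that of Rps12 with no filter (0.0644).

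On the relative scale 4 members were higher in dual treatment than in LPS (Rpl13a, Rps4l, Rpl10 and Rpl22) and 2 lower (Rpl3l and Rps2), against 36.7% and 15.4% of all tested genes. Rpl13a had relative levels of 0.0594, 0.06 and 0.0676 (control), 0.0256, 0.0319 and 0.0313 (LPS) and 0.0468 and 0.0495 (dual) times the geometric mean of members. The groups did not overlap, and the relative log2FC against LPS was 0.70 ± 0.20 (adjusted p 0.0118, and 0.0756 without dual-treated mouse 5). Rps2 had a relative log2FC of −0.39 ± 0.14 (adjusted p 0.0315), lost without control mouse 1 (0.0524), 2 (0.0611) or 4 (0.063), LPS mouse 1 (0.0674) or dual-treated mouse 5 (0.225) and with no filter (0.113) or LPS mouse 1 as the only LPS mouse (0.0752). Rpl10 rose by 0.43 (adjusted p 0.0303) and Rpl22 by 0.40 (adjusted p 0.0315). The Rpl10 call was lost without control mouse 2 (0.0532) or 4 (0.056), LPS mouse 1 (0.101) or 6 (0.056), or either dual-treated mouse (0.0982 and 0.108) and with no filter (0.0591). The Rpl22 call was lost without any control mouse (0.0526, 0.0601 and 0.0635), LPS mouse 1 (0.0988) or either dual-treated mouse (0.0525 and 0.21) and with no filter (0.0841). The Rpl3l call (relative log2FC −1.86, adjusted p 0.0215) was lost without LPS mouse 6 (0.0536) or dual-treated mouse 2 (0.142) and with LPS mouse 1 as the only LPS mouse (0.414). The number of higher members was 0 without dual-treated mouse 5 and 9 without LPS mouse 7, against 25.7% and 45.8% of all tested genes.

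**Figure D3:**
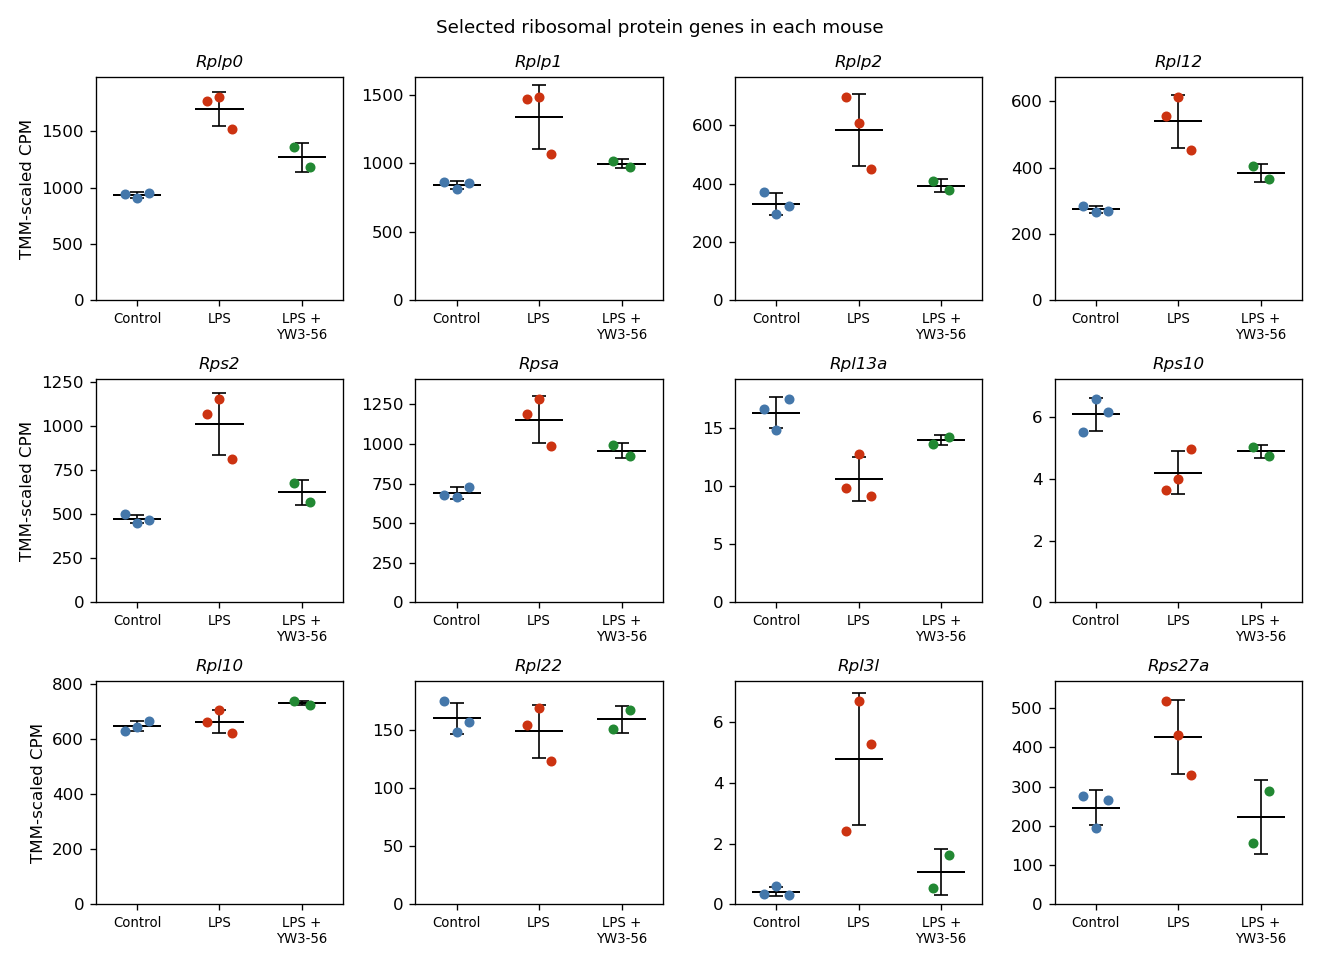
TMM-scaled CPM of selected members in each of the 8 mice.

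Members with a close paralog were read beside their partners, with no test between them. Rpl3 stood at 524, 514 and 520 CPM in the control mice, 589, 637 and 554 in the LPS mice and 619 and 582 in the dual-treated mice, a log2FC of 0.19 ± 0.10 for LPS (adjusted p 0.117, and 0.0184 with DESeq2). Rpl3l, its muscle paralog, stood at 0.342, 0.61 and 0.322 CPM (control), 2.43, 6.69 and 5.3 (LPS) and 0.544 and 1.62 (dual), with LPS mice 6 and 7 the highest. It rose with LPS (log2FC 3.48 ± 0.54, adjusted p 0.000355) and fell in dual treatment against LPS (−2.14 ± 0.57, adjusted p 0.00966, and 0.0582 without dual-treated mouse 2). The 8 skeletal muscle markers summed to 10.5, 19.7 and 14.7 CPM in the control mice, 17.5, 498 and 1280 in the LPS mice and 5.53 and 7.98 in the dual-treated mice, and Acta1, the most abundant, had 0 counts in control mouse 1. All 8 were called higher in LPS than in control and lower in dual treatment than in LPS. The part of muscle in the Rpl3l result was not tested. With LPS mouse 1 as the only LPS mouse, so that the other groups alone supplied the spread, the fitted log2FC of Rpl3l was 2.51 for LPS against control (adjusted p 0.015) and −1.16 for dual against LPS (adjusted p 0.204). Rps2 and Rpl3l are neighbours on chromosome 17, with 5846 bases between them.

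Rps27l, a paralog of Rps27 induced by p53, read 49.9, 43.6 and 43 CPM (control), 79.9, 87.6 and 54 (LPS) and 62.2 and 53.9 (dual). All treated mice lay above all controls, and the LPS rise was 1.62-fold (log2FC 0.70 ± 0.17, adjusted p 0.00453). Rps27 itself read 229, 176 and 178 CPM (control), 206, 244 and 191 (LPS) and 184 and 159 (dual), with overlapping groups (log2FC 0.14, adjusted p 0.397). Rps4l read 26.5, 26.4 and 34.5 CPM (control), 39.4, 43.9 and 24.4 (LPS) and 42.9 and 44.8 (dual), and LPS mouse 7 was the lowest of all mice. Its log2FC was 0.30 for LPS against control (adjusted p 0.214, and 0.00893 without LPS mouse 7) and 0.59 for dual against control (adjusted p 0.103, and 0.0191 without LPS mouse 7). On the relative scale Rps4l was higher in dual treatment than in LPS (0.61 ± 0.19, adjusted p 0.0196), lost without dual-treated mouse 2 (0.0609) or 5 (0.106). Rps4x, its more abundant partner, read 525, 489 and 512 CPM (control), 569, 637 and 486 (LPS) and 567 and 517 (dual), with overlapping groups (adjusted p 0.3 for LPS). Relative to the geometric mean of members Rps4x read 1.87, 1.97 and 1.97 (control), 1.47, 1.59 and 1.65 (LPS) and 1.93 and 1.79 (dual), with every LPS mouse the lower, and it fell with LPS on that scale (relative log2FC −0.30, adjusted p 0.0482). That call was lost with any single library left out except LPS mouse 7, with adjusted p between 0.0566 (without LPS mouse 6) and 0.17 (without LPS mouse 1). The Rps4x call was also lost with no filter (0.134) and with a reference from members with a mean of at least 50 CPM (0.0693).

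Of 8 tested ribosomal proteins whose symbols fall outside the rule, 5 were higher and 0 lower in LPS than in control. Their median log2FC was 0.44, and 32.6% of all tested genes were higher and 33.9% lower. Rpl36al stood at 0.831, 0.516 and 0.735 CPM (control), 4.74, 3.63 and 3.23 (LPS) and 1.86 and 1.18 (dual). The groups did not overlap, and the log2FC was 2.47 for LPS against control (adjusted p 0.000135) and −1.34 for dual against LPS (adjusted p 0.00919). Rpl22l1, the paralog of Rpl22, stood at 29.3, 18 and 14.1 CPM (control), 34.4, 38.9 and 25.2 (LPS) and 18.7 and 16.9 (dual). It rose with LPS (log2FC 0.68, adjusted p 0.0383) and fell in dual treatment against LPS (−0.88, adjusted p 0.0261), while Rpl22 had a log2FC of −0.10 with LPS (adjusted p 0.491). In dual treatment against LPS 1 of these 8 proteins was higher and 3 lower, where 31.7% and 27.4% of all tested genes were.

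The 79 mRNAs were set beside lists of genes that act with ribosomes. For the lists and markers below, 32.6% of all tested genes were higher and 33.9% lower in LPS than in control. The shares were 31.7% and 27.4% in dual treatment against LPS, and 9.13% and 7.02% in dual treatment against control. Of 39 ribosome biogenesis genes 29 were higher and 2 lower in LPS than in control, with a median log2FC of 0.78 beside 0.43 for members, and 4 were higher and 26 lower in dual treatment than in LPS (median −0.47 beside −0.29). Eif6, which keeps the subunits apart, had log2FC 1.78 for LPS (adjusted p 5.76e-06) and −1.03 for dual against LPS, and the large-subunit export adaptor Nmd3 had 1.76 and −1.44. Both changed more than any stalk gene. Among 33 initiation factors 21 were higher and 3 lower with LPS (median 0.32). Among 8 genes of elongation 3 were higher and 1 lower (median 0.41), led by Eif5a (log2FC 1.17, adjusted p 6.07e-05). The 3 higher include Eef2k (log2FC 0.60, adjusted p 0.0111), a kinase that inhibits Eef2 and is not itself an elongation factor. Of 16 other genes whose mRNAs carry the pyrimidine tract 9 were higher and 2 lower (median 0.32), and 1 was higher and 8 lower in dual treatment against LPS (median −0.28, beside −0.29 for members). Eef1a1, Eef1b2, Eef1g and Eef2 are on both the elongation and the tract list.

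Of 20 genes of mTORC1 signalling and the control of ribosomal protein mRNAs 12 were higher and 4 lower with LPS (median 0.44, beside 0.43 for members), led by Ddit4 (log2FC 3.55), Sesn1 (2.71) and Myc (2.59), and in dual treatment against LPS 5 were higher and 12 lower (median −0.54), with −2.44, −3.13 and −1.96 for the same genes. This list pools parts of mTORC1 with genes that restrain it, Ddit4 and Sesn1 among them. Its counts and medians therefore give no direction of mTORC1 signalling, which was not tested. Of 12 genes of the integrated stress response 10 were higher and 1 lower with LPS (median 0.87), and 1 was higher and 9 lower in dual treatment against LPS (median −0.84). Of 77 tested mitochondrial ribosomal proteins 29 were higher and 22 lower with LPS, where 32.6% and 33.9% of all tested genes were (median 0.15, beside 0.43 for cytosolic members). In dual treatment against control 6 were higher and 0 lower (median 0.19, beside 0.14), and against LPS 26 were higher and 15 lower (median 0.17, beside −0.29). The difference between the mitochondrial and cytosolic sets was not tested. Mrpl14 had the largest change, a log2FC of −1.78 with LPS (adjusted p 4.24e-06).

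Cell-type markers were summed in each lung, and the marker with the highest mean over the 8 mice is named as leading. All 10 neutrophil markers were higher in LPS than in control, with sums of 223, 123 and 130 CPM (control), 2220, 3010 and 1870 (LPS) and 1720 and 2390 (dual), and S100a9 was the most abundant. Of the 10, 4 were higher and 4 lower in dual treatment than in LPS. Of 5 endothelial markers 3 were lower with LPS and 3 higher in dual treatment than in LPS, with sums of 2420, 2700 and 2780 CPM (control), 1920, 1570 and 1530 (LPS) and 2610 and 2570 (dual), led by Cdh5. Of 9 lung epithelial markers 2 were higher and 4 lower with LPS, with sums of 68800, 70000 and 75300 CPM (control), 96800, 78100 and 71900 (LPS) and 43500 and 56700 (dual), led by Scgb1a1. Of 7 macrophage markers 0 were higher and 2 lower with LPS, and 5 were higher in dual treatment than in LPS, with sums of 858, 606 and 814, then 881, 968 and 494, then 1180 and 1860 CPM, led by Chil3. All 5 erythroid markers were lower in dual treatment than in either other group, with sums of 1730, 3900 and 2780, then 3280, 1880 and 1470, then 425 and 381 CPM, led by Hbb-bs.

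Squamous epithelial markers, 8 of 9 higher with LPS, summed to 7.28, 7.31 and 5.47 CPM (control), 1.3, 794 and 2140 (LPS) and 3.58 and 5.48 (dual), and Krt13 was the most abundant. Fibroblast markers, 2 of 4 lower with LPS, summed to 824, 909 and 854 CPM (control), 609, 639 and 594 (LPS) and 1110 and 739 (dual), led by Pdgfra. Lymphocyte markers, 1 of 11 higher and 4 lower, summed to 56, 54.6 and 52.1, then 45.8, 43.1 and 26.8, then 79.7 and 42.4 CPM, led by Cd79b. Transcripts encoded by mitochondria, 9 of 22 tested higher and 2 lower with LPS and 14 lower in dual treatment than in LPS, summed to 14600, 14900 and 14100, then 18400, 19500 and 19900, then 11700 and 10800 CPM, led by mt-Co1. All listed cell-type markers were above 3 counts in at least 1 library. The part of any of these cell types in the member results was not tested.

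Processed pseudogenes can share reads with members, and 62 of the 81 have at least 1 among the 317 listed by symbol. Summed pseudogene level by library size was 909, 751 and 784 CPM (control), 949, 1060 and 759 (LPS) and 908 and 872 (dual), small beside the 29942 to 39629 CPM of the members. Of 63 tested pseudogenes 18 were higher and 3 lower in LPS than in control (median log2FC 0.42), where 32.6% and 33.9% of all tested genes were. In dual treatment against LPS 0 were higher and 12 lower (median −0.29), where 31.7% and 27.4% of all tested genes were. By library size, Rps10 had a mean of 124 CPM in its pseudogenes against 5.17 in the gene itself, while the pseudogenes of Rps12 held 142 CPM against 544. How the count files treated reads that map to both was not stated.

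Promoter sequence was taken from RefSeq gene starts on GRCm38.p6, and 60 members had an entry, Rplp1 and Rps14 not among them. In the 30 bases around the annotated start a pyrimidine run of at least 6 bases was present in 34 of 60 members (56.7%) and in 29.1% of 27025 promoters, and a run of at least 10 in 16 members (26.7%) and 5.19% of promoters. CGGAAG on either strand of the 300 bases around the start was found in 41 members (68.3%) and 17.2% of promoters, and CCGGAAG, which contains it, in 24 members (40%) and 9.12%. Windows are shown for those of the 5 most abundant members per kb that had an entry and for the called members with the largest rise and fall in LPS against control (Rpl3l and Rpl13a) and the largest rise in dual treatment against control (Rpl12), with the longest pyrimidine run in capitals (the first of 2 equal runs for Rps15). They lie at chr10:128549154-128549183 on the minus strand (Rpl41), chr10:23787195-23787224 on the minus strand (Rps12), chr10:80292416-80292445 on the plus strand (Rps15), chr2:32961697-32961726 on the plus strand (Rpl12), chr7:45128731-45128760 on the minus strand (Rpl13a) and chr17:24727811-24727840 on the plus strand (Rpl3l).
Rpl41: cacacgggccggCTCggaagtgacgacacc
Rps12: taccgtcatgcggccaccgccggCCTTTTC
Rps15: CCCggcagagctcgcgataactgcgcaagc
Rpl12: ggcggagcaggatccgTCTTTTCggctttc
Rpl13a: gaaaccctgcgacaagaCCTCCTCCTTTCC
Rpl3l: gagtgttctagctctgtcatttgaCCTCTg
The runs were 3, 7, 3, 7, 13 and 5 bases long in this order. A match describes the sequence only, and start sites were not measured here.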

How the data were processed

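Raw counts per gene were used as deposited by the authors, who had made them with FastQC 0.11.9, Trim Galore, HISAT2 2.2.1 and featureCounts 2.0.1 on GRCm39. The annotation release, strand setting and treatment of reads that map to several places were not stated. All 8 libraries were used. Identifiers were matched to GENCODE M39, and 667 of 55416 found no match (0.0533% of counts). Counts were tested with edgeR 4.0.16 quasi-likelihood F tests (TMM scaling, filterByExpr, a single group factor, 5 residual degrees of freedom) under R 4.3.3, with Benjamini-Hochberg adjustment over 18560 genes, and again with DESeq2 1.42.0. A gene was called at adjusted p under 0.05. The standard error is the absolute log2FC divided by the square root of F. Members and gene lists were chosen with earlier results of these data known. RefSeq sequences were read from a table on GRCm38.p6. The labels and a figure legend of the paper give 2 dual-treated mice, whereas its methods describe 3 sequenced mice per group.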

Additional observations from a re-analysis of the deposited data

How the results depend on the processing

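The alternatives were library size alone, DESeq2 size factors, upper-quartile scaling, TMM without ribosomal protein genes, the DESeq2 Wald test, only the 2 groups compared, a correction for length and GC content, no filter, at least 10 counts in every library, the study's 2-fold criterion on the edgeR fit and leaving out each library. For the summed level, adding pseudogenes and dropping the 5 most abundant members were also tried. LPS mouse 1 as the only LPS mouse, the study's criterion with DESeq2 and the variants of the relative scale were chosen after seeing the data. No paired analysis was possible because the groups shared at most 1 replicate number.

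Below, percentages in brackets give the share of all genes tested in the same fit that were called in the same direction. In LPS against control, the 50 higher members (32.6%) became 15 with library size alone (23.4%). By the study's criterion there were 2 with edgeR (18.3%) and 4 with DESeq2 (18.8%). With a library left out there were 32 to 67 (28.9% to 32%). The 2 lower (33.9%) became 6 with library size alone (42.2%) and 1 with the DESeq2 Wald test (32.7%). There was also 1 with no filter (20.6%) or the length and GC correction (31.2%). The study's criterion gave 0 with edgeR (21.8%) and 0 with DESeq2 (20.8%). Leaving out a library gave 1 to 2 (30.8% to 33.6%). On the relative scale the 6 higher (17.6%) became 3 to 9 with a library left out (14.7% to 18.3%). The 9 lower (43.7%) became 5 to 13 with a library left out (38.1% to 51.9%). The median log2FC of 0.43 became 0.13 with library size alone and 0.37 to 0.57 with a library left out. The summed ratio of 1.38 became 1.12 with library size alone.

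In dual treatment against control, the 3 higher members (9.13%) became 5 with library size alone (9.78%) and 1 with DESeq2 size factors (8.83%). They became 5 with the DESeq2 Wald test (10.2%), 10 with only the 2 groups (11.9%) and 0 with the length and GC correction (8.89%). By the study's criterion there were 0 with edgeR (7.04%) and 1 with DESeq2 (6.62%). With a library left out there were 0 to 7 (4.06% to 10.7%). The member median log2FC was 0.14 with LPS mouse 1 only.

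In dual treatment against LPS, the 0 higher members (31.7%) became 8 with library size alone (42.5%) and 1 with upper-quartile scaling (34.4%). With a library left out there were 0 to 1 (23.5% to 31.2%). The 15 lower (27.4%) became 1 with library size alone (17.4%), 26 with DESeq2 size factors (29.1%) and 9 with upper-quartile scaling (24.8%). They became 34 with the DESeq2 Wald test (29.3%), 7 with only the 2 groups (25.7%) and 37 with the length and GC correction (31.2%). By the study's criterion there was 1 with edgeR (14.7%) and 1 with DESeq2 (15.2%). With a library left out there were 3 to 57 (20.7% to 27%). The member median log2FC was −0.40 with LPS mouse 1 only. On the relative scale the 4 higher (36.7%) became 2 with no filter (22.6%). With a library left out there were 0 to 9 higher (25.7% to 45.8%), and the 2 lower (15.4%) became 1 to 3 (8.23% to 16.8%). The median of −0.29 became 0.041 with library size alone and −0.43 to −0.21 with a library left out. The summed ratio of 0.811 became 1.02 with library size alone.

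Rpl10 in LPS against control reversed, from a log2FC of 0.04 (adjusted p 0.768) to −0.25 (adjusted p 0.0422) with library size alone. The cause of these differences was not tested.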
